A study of Capra hircus with 36 samples.

Results

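miR-122 is the miRNA best known as a marker of liver cells, and its arms were followed here through 36 small RNA libraries of goat tissue. Members were chosen by name: of the 1391 mature miRNA names with a count in each library, 2 belonged to this precursor, chi-miR-122-5p and chi-miR-122-3p, and a row for a predicted miRNA with a similar name was skipped. The libraries came from the liver, kidney, longissimus muscle, lung, heart and spleen of 3 Tibetan goats kept at 3000 m and 3 Chuandong White goats kept at 600 m, all adult females of about 3 years. The goats are called high goats 1 to 3 and low goats 1 to 3 below, and altitude, breed and place cannot be told apart in this design. Total counts ranged from 7108635 to 9205957 in the 6 liver libraries and from 7312782 to 14407748 in the other 30.

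In vertebrates miR-122 is transcribed from its own gene, under the control of liver-enriched transcription factors, and it is one of the most abundant miRNAs of hepatocytes. The hairpin is cut into a duplex, from which the 5p strand is the usual guide that is loaded into Argonaute, while most of the 3p strand is discarded. The guide strand represses many messenger RNAs, its loss in mice disturbs cholesterol and lipid metabolism, and damaged hepatocytes release it into blood, where it serves as a marker of liver injury. In the goat annotation (RefSeq, assembly ARS1.2), the gene MIR122 overlapped no other annotated gene, and its nearest protein-coding neighbours were NEDD4L, which encodes a ubiquitin ligase, and ALPK2, which encodes an alpha kinase.

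In liver, chi-miR-122-5p had 16955 RPM (reads per 1000000 counts of the library) in high goat 1, 6118 RPM in high goat 2 and 179917 RPM in high goat 3. In the low goats the level was 26767, 53506 and 20257 RPM in goats 1, 2 and 3. High goat 3 was the highest of the 6 livers and high goats 1 and 2 were the lowest, so that the high group enclosed the whole low group. The count itself ran from 56323 reads in high goat 2 to 1648215 in high goat 3, where chi-miR-122-5p took 18.0% of the library against 0.612% in high goat 2. Counting error was small beside this difference (95% Wilson intervals of 6068 to 6169 RPM in high goat 2 and 179668 to 180166 RPM in high goat 3, which cover counting error only).

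The mean over the 6 livers was 50587 ± 65316 RPM (SD, n = 6), and it was 24721 RPM without high goat 3. The high goats differed by 29.4 times between lowest and highest (67663 ± 97365 RPM, SD, n = 3), and the low goats by 2.64 times (33510 ± 17621 RPM, SD, n = 3). On the scale of log2(RPM + 1), the SD was 2.50 in the high group and 0.72 in the low group, and no test of this difference in spread was made. With TMM scaling in place of library totals alone, the high goats differed by 49.8 times (factors of the liver fit) or 41.2 times (factors over 36 libraries), and the low goats by 2.27 or 2.18 times. Both ranges depended on single goats. The high goats differed by 2.77 times without high goat 3 (SD 1.04) and by 10.6 times without high goat 2 (SD 2.41), and the low goats by 1.32 times without low goat 2 (SD 0.28).

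Between the populations, the difference in liver was smaller than this spread. The mean of log2(RPM + 1) was 14.70 in the high goats and 14.91 in the low goats, a difference of -0.21 (high minus low, exact two-sided permutation test, p = 0.90, 3 against 3, smallest possible p 0.10). The edgeR quasi-likelihood test gave a log2 fold change of 1.44 (high over low, SE 1.25, 95% interval -1.54 to 4.42, adjusted p = 0.81), so the model and the mean of logs had opposite signs. Without high goat 3 the edgeR log2 fold change was -1.29 (adjusted p = 0.91). Calls required an adjusted p under 0.05 and a log2 fold change of 1.5 or more in size. In liver edgeR called 0 of 1391 miRNAs (0%), with 59 at an unadjusted p under 0.05, and DESeq2 called 31 of the 761 it gave an adjusted p (4.07%), chi-miR-122-5p not among them (log2 fold change 1.47, adjusted p = 0.70). In bulk liver, fewer hepatocytes and less miRNA per hepatocyte cannot be told apart.

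**Figure D1:**
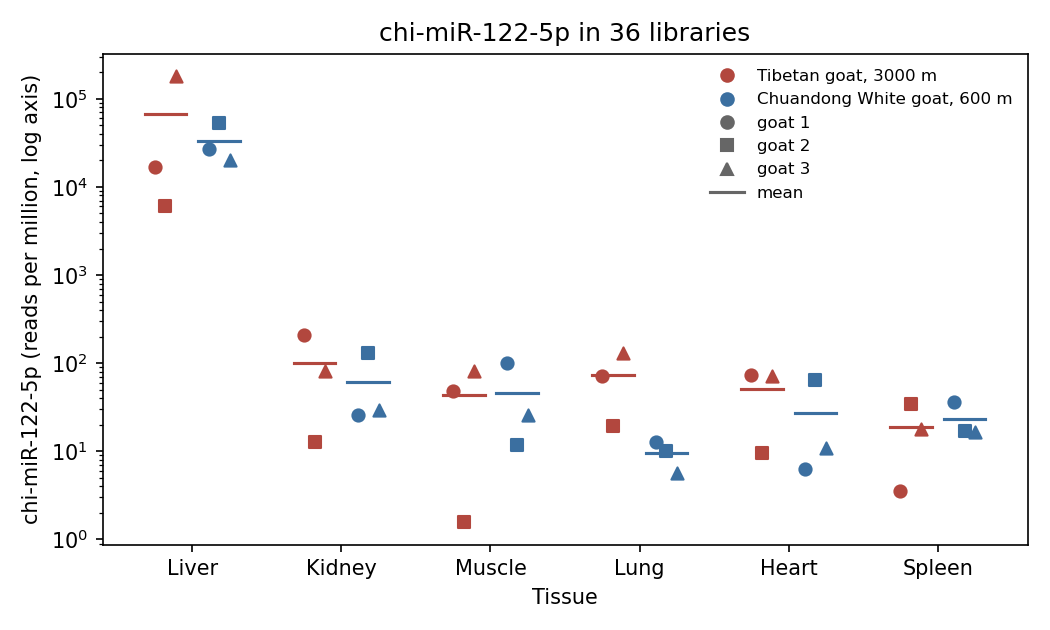
Level of chi-miR-122-5p in each of 36 libraries, in RPM on a log axis, by tissue. Red points are the 3 Tibetan goats and blue points the 3 Chuandong White goats, marker shapes give the goat number within a population, and bars are group means. The 6 liver libraries lie between 6118 and 179917 RPM and the other 30 between 1.57 and 207.9 RPM.

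The other strand did not follow these swings. In liver chi-miR-122-3p stood at 65.9, 82.8 and 42.4 RPM in high goats 1, 2 and 3, and at 114, 75.4 and 38.0 RPM in low goats 1, 2 and 3. High goat 3, the highest liver for the 5p strand, was the second lowest for the 3p strand, and high goat 2, the lowest for 5p, was the second highest for 3p. The lowest and highest 3p levels differed by 3.00 times, on 319 to 991 reads per library. The groups overlapped, and edgeR gave a log2 fold change of -0.20 (high over low, SE 0.55, 95% interval -1.50 to 1.11, adjusted p = 1), a sign that turned without high goat 3 (0.04) and without low goat 1 (0.40).

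The ratio of 5p to 3p reads accordingly varied over a wide range. It was 257 in high goat 1, 73.9 in high goat 2 and 4248 in high goat 3, against 235, 710 and 533 in low goats 1, 2 and 3. The 5p strand was the major product in every liver, and high goats 2 and 3 held the lowest and highest ratio, which differed by 57.5 times. Summed over the 6 livers, 3p reads made up 0.134% of the 2 strands (95% Wilson interval 0.130 to 0.138%, for counting error only), while single livers ran from 0.0235% in high goat 3 to 1.33% in high goat 2. High goat 3 gave most of the 5p reads, and without it the summed share was 0.320%. The mean log2 ratio was 8.76 ± 2.99 in the high goats and 8.80 ± 0.83 in the low goats (SD, n = 3 each), a difference of -0.05 (exact two-sided permutation test, p = 1, 3 against 3). Its sign turned in 4 of the 6 comparisons that left out 1 library, with values from -1.69 to 1.23.

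Set against other liver miRNAs, this variation of the strand ratio was high but not the most extreme. Among 53 named precursors whose strands each averaged at least 10 RPM and had reads in every liver, the SD of the log2 ratio over the 6 livers was 1.96 for miR-122, the 6th highest, and the median was 0.86. The level of chi-miR-122-5p gave a like picture, as its SD of log2(RPM + 1) over the 6 livers was 1.65, the 9th highest among 60 miRNAs with a liver mean of at least 1000 RPM, where the median was 0.55. The SD of chi-miR-122-3p was 0.59, rank 179 of the 268 miRNAs with a liver mean of at least 10 RPM, whose median was 0.76. In that larger set chi-miR-122-5p ranked 53rd. Several of the names above chi-miR-122-5p among the 60 had no read at all in some livers, such as chi-miR-199c-3p (0 to 9596 RPM) and chi-let-7a-5p (0 to 8853 RPM), a pattern that chi-miR-122-5p did not show.

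**Figure D2:**
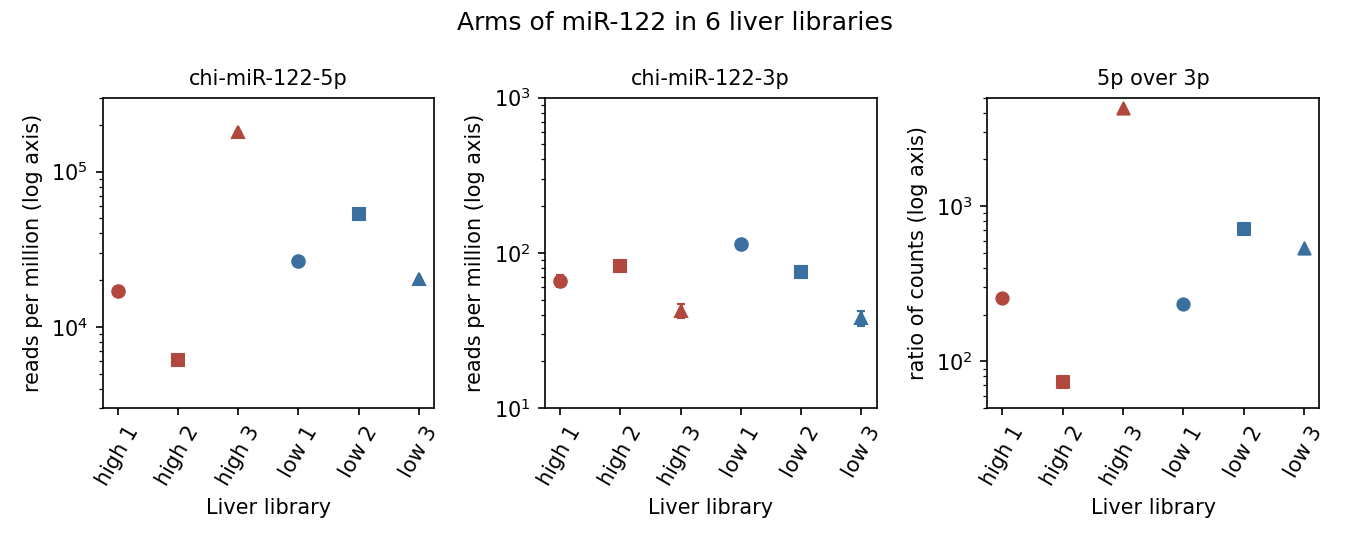
RPM of chi-miR-122-5p and chi-miR-122-3p and the ratio of their counts in the 6 liver libraries, each on a log axis, with red for Tibetan and blue for Chuandong White goats. Error bars are 95% Wilson intervals of the levels and are mostly hidden by the points. The 5p level runs from 6118 to 179917 RPM, while the 3p level stays between 38.0 and 114 RPM.

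By mean level chi-miR-122-5p was the 6th most abundant miRNA of these livers. Above it were chi-miR-26a-5p (163862 RPM), chi-miR-143-3p (128848 RPM), a miRNA of smooth muscle and other mesenchymal cells, chi-miR-148a-3p (99723 RPM), a miRNA abundant in hepatocytes, chi-miR-22-3p (77677 RPM) and chi-miR-30a-5p (73319 RPM). Behind it were chi-let-7f-5p (30812 RPM), chi-miR-27b-3p (21967 RPM), chi-miR-101-3p (20105 RPM) and chi-miR-194-5p (16949 RPM). The rank depended on the goat. chi-miR-122-5p was the most abundant miRNA in high goat 3 and ranked 12th in high goat 1, 26th in high goat 2, and 7th, 5th and 10th in low goats 1, 2 and 3. The most abundant miRNA was chi-miR-143-3p in high goat 1 and low goat 1, chi-miR-148a-3p in high goat 2 and chi-miR-26a-5p in low goats 2 and 3.

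The summed level of the other miRNAs listed for hepatocytes varied less within each population than chi-miR-122-5p did. A sum over strands can hide the variation of its members, so this does not hold for every single strand. The list held 8 precursors, of which 6 were matched with 14 strands, each with liver reads, while miR-192 and miR-802 were not analysed here. Without miR-122, its 12 strands summed to 185884, 199984 and 164420 RPM in high goats 1, 2 and 3, and to 110637, 89140 and 91046 RPM in low goats 1, 2 and 3. For this sum the high goats lay above the low goats without overlap, unlike chi-miR-122-5p. Among all 992 miRNAs with a liver read, 116 (11.7%) had groups that did not overlap. Most of the sum was chi-miR-148a-3p, at 138058, 146582 and 131152 RPM in the high goats and 78527, 47174 and 56843 RPM in the low goats (edgeR log2 fold change 1.29, SE 0.37, adjusted p = 0.70). Its DESeq2 value (1.37, adjusted p = 0.049) was under the fold threshold, so neither tool called it. The other large strands of the sum, chi-miR-101-3p and chi-miR-194-5p, had groups that overlapped. The conserved name for miR-148a-3p leaned the other way (edgeR log2 fold change -0.36). It had 1417, 1705 and 3255 RPM in high goats 1, 2 and 3, and 3304, 3193 and 2937 RPM in low goats 1, 2 and 3. The separation of the sum thus rested on chi-miR-148a-3p. Of the 14 strands of the list, miR-122 included, 8 had a positive edgeR log2 fold change and 6, against the direction of the sum, a negative one. chi-miR-194-5p, which is also transcribed in intestine and kidney, ranged only from 11199 to 22911 RPM over the 6 livers, and chi-miR-101-3p from 13656 to 29692 RPM. The conserved name for miR-885-5p, a sparse liver miRNA, ranged from 7.02 to 31.5 RPM and was low in high goat 3 (8.19 RPM), the liver richest in chi-miR-122-5p. In the low goats it ran from 7.02 to 24.3 RPM, and chi-miR-148a-5p from 68.0 to 196 RPM. Both ranges were wider in fold than that of chi-miR-122-5p in the low goats.

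The summed levels of markers of other cell types did not rank the livers as chi-miR-122-5p did. The endothelial list (2 strands of miR-126, led by chi-miR-126-5p) summed to between 16320 and 23152 RPM and the leukocyte list (8 strands, led by miR-142-5p) to between 6324 and 22825 RPM. The mesenchymal list (13 strands, 4 of them at 0 in all livers, led by chi-miR-143-3p) summed to between 83230 and 182339 RPM, and the epithelial list (9 strands, led by chi-miR-141-3p) to between 532 and 1749 RPM. High goats 2 and 3, the extremes for chi-miR-122-5p, lay close together on the endothelial sum (18636 and 19078 RPM), the leukocyte sum (11683 and 10834 RPM) and the mesenchymal sum (122536 and 132839 RPM). Single strands of these lists differed more between high goats 2 and 3, some in opposite directions that offset each other in the sum. chi-miR-126-5p was at 8919 RPM in high goat 2 and 14455 RPM in high goat 3, chi-miR-126-3p at 9718 and 4623 RPM, chi-miR-199a-5p at 2112 and 359 RPM, and chi-miR-150-5p at 553 and 118 RPM.

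A pair of lists varied more widely. The erythroid list (4 strands of miR-144 and miR-486, with miR-451 not analysed here) summed to 343 RPM in high goat 1, 6388 RPM in high goat 2 and 4285 RPM in high goat 3, against 9104, 9959 and 8658 RPM in the low goats. Its leading member, miR-486-5p, stood at 2.03 RPM in high goat 1 and between 4283 and 9529 RPM in the other livers, and both strands of miR-144 were at 0 in high goat 3. Over tissues, miR-486-5p averaged more in muscle (22874 RPM) and heart (22401 RPM) than in spleen (4087 RPM). By contrast, chi-miR-144-3p was highest in spleen (799 RPM) and at 0 in lung, where miR-486-5p averaged 7177 RPM. The sum is therefore not a measure of blood alone. The striated muscle list (9 strands, 1 of them at 0, led by chi-miR-133a-3p) summed to 3756, 3059 and 2812 RPM in high goats 1, 2 and 3, and to 417, 5224 and 1324 RPM in low goats 1, 2 and 3. The part of blood or other cell types in the chi-miR-122-5p level was not tested. Over all 7 lists edgeR called 0 strands between altitudes in liver (0% of all miRNAs, with 5 of the 59 strands at an unadjusted p under 0.05, or 8.47%, against 4.24% of all miRNAs), and DESeq2 called 3 of the 51 strands it gave an adjusted p (5.88%, against 4.07% of all miRNAs). These were chi-miR-150-5p (log2 fold change 2.44), chi-miR-143-5p (-2.24) and chi-miR-499-5p (2.97).

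Outside liver chi-miR-122-5p was found in all 30 libraries, at trace level. Counts ran from 20 to 2223 reads and levels from 1.57 to 207.9 RPM with a median of 25.8 RPM, above the 0.208 to 0.410 RPM that 3 counts give at these depths. The lowest liver library was still 29.4 times the highest of the other 30. In kidney, the next tissue by median, the level was 207.9, 12.9 and 81.9 RPM in high goats 1, 2 and 3, and 26.0, 129 and 29.8 RPM in low goats 1, 2 and 3. The groups overlapped, with high goat 2 lowest and high goat 1 highest. In heart the level was 72.7, 9.68 and 71.1 RPM in the high goats and 6.31, 65.0 and 11.0 RPM in the low goats. The order of goats within each population was that of kidney, but low goat 1 was the lowest heart. The heart groups overlapped too.

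In muscle the high goats stood at 48.2, 1.57 and 80.8 RPM and the low goats at 99.7, 11.8 and 25.6 RPM, which overlapped. High goat 2 was the lowest muscle, on 20 reads. In spleen the high goats stood at 3.56, 34.4 and 18.0 RPM and the low goats at 36.7, 17.1 and 16.8 RPM, and here high goat 1 was the lowest. In lung the high goats stood at 72.2, 19.6 and 129 RPM and the low goats at 12.7, 10.05 and 5.69 RPM. Lung was the only one of the 6 tissues in which the populations did not overlap.

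By median the order was liver (23512 RPM), kidney (55.8 RPM), heart (38.0 RPM), muscle (36.9 RPM), spleen (17.6 RPM) and lung (16.2 RPM). Liver did not overlap with any other tissue, while each of the other neighbours in this order overlapped and did not differ beyond the spread between libraries. Within the same goat, the median ratio of liver over another tissue was 578 for kidney, 1331 for heart, 1508 for muscle, 1750 for lung and 2164 for spleen. The goats differed widely in this ratio, from 81.5 to 2198 for kidney. A tissue specificity index, which is 0 for equal means in all 6 tissues and 1 for a miRNA found in a single tissue, was 0.999 for chi-miR-122-5p, the 4th highest among 268 miRNAs with a liver mean of at least 10 RPM, and 0.994 for chi-miR-122-3p. miR-122 was selected as a liver miRNA, so these tissue levels are a description and were not tested.

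The 3p strand was close to its limit of detection outside liver. It had a read in 23 of 30 libraries, and 19 of the 30 held at most 3 reads. Low goat 1 stood out in muscle with 50 reads of chi-miR-122-3p (4.09 RPM), while no other library outside liver had more than 10. The same muscle library was the highest of its tissue for chi-miR-122-5p, with a 5p to 3p ratio of 24.4. A ratio under that of the lowest liver (73.9) was found in 10 of the 23 libraries outside liver that had 3p reads. Summed over the 5 tissues, the ratio was 108 with 15229 reads of the 5p strand, and 0.917% of reads came from the 3p strand (95% Wilson interval 0.778 to 1.08%, for counting error only). Without the muscle of low goat 1, which gave 50 of the 3p reads, the ratio was 154 and the share 0.645%, outside that interval. By tissue the summed ratio was 351 in kidney, 157 in lung, 139 in heart, 77.1 in spleen and 46.5 in muscle, on 15 to 74 reads of the 3p strand, so the single ratios are imprecise. Of the 74 reads in muscle 50 came from low goat 1, and without that library the muscle ratio was 92.7, above the 77.1 of spleen. Low goat 1 also gave 9 of the 16 reads of the 3p strand in spleen, so the order of muscle and spleen rests on single libraries.

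Whether the trace level differed between the populations was tested within each tissue. In lung the mean of the high goats was 7.77 times that of the low goats (73.7 ± 54.8 against 9.48 ± 3.54 RPM, SD, n = 3 each), and edgeR gave a log2 fold change of 3.44 (SE 0.97, 95% interval 1.12 to 5.75, unadjusted p = 0.010, adjusted p = 0.83). All 3 high goats lay above all 3 low goats. This held for 32 of the 910 miRNAs with a lung read, while 83 had all low goats on top (12.6% without overlap in all). The lung difference did not pass after adjustment over 1391 miRNAs, of which edgeR called 0 in lung (0%, with 66 at an unadjusted p under 0.05). DESeq2 called chi-miR-122-5p (log2 fold change 3.49, adjusted p = 0.021), 1 of 21 called among 658 (3.19%). Over the alternatives tried in lung, the adjusted p ranged from 0.021 to 1 and the log2 fold change from 2.52 to 3.95.

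In kidney, heart, muscle and spleen neither tool called chi-miR-122-5p. The edgeR log2 fold change was 1.20 in kidney (95% interval -1.63 to 4.03), 0.70 in heart (-1.88 to 3.28), 0.24 in muscle (-2.99 to 3.47) and -0.46 in spleen (-2.34 to 1.42), each with an adjusted p of 1. These intervals are wide and span large differences in either direction. In the same fits edgeR called 0 miRNAs in kidney (0%, with 64 at an unadjusted p under 0.05), 0 in heart (0%, with 89), 1 in muscle (0.0719%) and 2 in spleen (0.144%), and DESeq2 called 29 of 513 in kidney (5.65%), 36 of 523 in heart (6.88%), 31 of 530 in muscle (5.85%) and 36 of 711 in spleen (5.06%). The difference between tissues was then tested itself, with the goat as a block. The altitude difference of chi-miR-122-5p did not vary between tissues past the threshold (edgeR quasi-likelihood F = 1.15, adjusted p = 1, 36 libraries), so the lung value is not shown to differ from those of the other tissues. F depended on the goats, and was 3.57 without high goat 2 (adjusted p = 0.49) and 2.17 without high goat 1 (adjusted p = 1). It fell to 0.705 without low goat 1 and to 0.698 without low goat 3. The same test called 2 of 1391 miRNAs (0.144%).

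Because each goat gave all 6 tissues, the levels can also be followed goat by goat. High goat 2 had the lowest chi-miR-122-5p of the high goats in liver, kidney, heart, muscle and lung, and the highest of them in spleen. Low goat 2 had the highest of the low goats in liver, kidney and heart, and the lowest in muscle. The mean of the other 5 tissues amounted to 0.477, 0.256 and 0.0424% of the liver level in high goats 1, 2 and 3, and to 0.136, 0.0871 and 0.0878% in low goats 1, 2 and 3. High goat 3, with a liver level 10.6 times that of high goat 1, was above it in muscle, lung and spleen and below it in kidney and heart. Over the other 5 tissues high goat 3 had the higher geometric mean (64.5 against 46.9 RPM) and high goat 1 the higher arithmetic mean (80.9 against 76.2 RPM), so their order depended on the kind of mean. Across the 6 goats, the correlation of log2(RPM + 1) in liver with its mean over the other tissues had r = 0.77 (exact permutation p = 0.075, adjusted p = 0.15) and rho = 0.66 (exact permutation p = 0.18, adjusted p = 0.18). Without high goats 2 and 3, the 2 livers farthest from the median, r was -0.09, so the relation rests on those goats. It was examined after the values had been seen, and 3 goats in each population were too few to repeat it within them.

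The miRNAs most like chi-miR-122-5p over all 36 libraries had their highest mean in liver, though miR-9142-3p reached only 11.7 RPM there. Ranked by the Pearson correlation of log2(RPM + 1) among 267 miRNAs with a liver mean of at least 10 RPM, they were the strands of the conserved name miR-9142 (r = 0.94 for 5p and 0.93 for 3p), chi-miR-122-3p (0.93), chi-miR-335-3p (0.81) and chi-miR-194-5p (0.81). The 36 libraries hold 6 livers far above the rest, which weighs on each r, and no test was made. The limit on the liver mean also favours liver miRNAs, so neighbours of this kind were likely from the start. miR-9142-5p averaged 306 RPM in liver and 6.12 RPM in kidney, and under 1 RPM in the other 4 tissues. In liver it stood at 262, 180 and 311 RPM in high goats 1, 2 and 3, and at 315, 539 and 227 RPM in low goats 1, 2 and 3. It shared the lowest liver with chi-miR-122-5p but not the highest, and spread far less.

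Outside liver, reads of miR-9142-5p were unevenly placed. The kidney of low goat 2 had 328 reads of it (29.1 RPM), while the other kidneys had 6 to 41, and this kidney was also the highest of the low goats for chi-miR-122-5p. The muscle of low goat 1 had 46 reads, while the other muscles had 3 to 7, and it was the muscle library with most reads of both strands of miR-122. In lung it had 20, 14 and 14 reads in high goats 1, 2 and 3, and 0, 0 and 5 in low goats 1, 2 and 3. These lung groups did not overlap, as for 12.6% of the miRNAs with a lung read, and neither tool called miR-9142-5p there (edgeR log2 fold change 3.46, SE 1.70, unadjusted p = 0.083, adjusted p = 0.83). In kidney (-3.34, SE 1.21, unadjusted p = 0.030, adjusted p = 0.96) and muscle (-1.75, SE 1.31, adjusted p = 0.80) its log2 fold change had the opposite sign to that of chi-miR-122-5p (1.20 and 0.24). The signs were also opposite in spleen (1.44, SE 2.24, against -0.46). They were the same in heart (5.57, SE 2.42, edgeR unadjusted p = 0.078, adjusted p = 0.75, against 0.70). Heart had 16, 0 and 3 reads of miR-9142-5p in high goats 1, 2 and 3, and 0 in the low goats. miR-9142-5p was picked for its likeness to chi-miR-122-5p over libraries that include these, so none of these values is independent of that choice. The kidney of high goat 1, the highest non-liver library for chi-miR-122-5p, had 9 reads of miR-9142-5p. The part of liver material or of blood in the trace reads was not tested.

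Over the 6 livers alone the neighbours were different. The highest correlations were those of chi-miR-10a-5p (r = 0.97), miR-2284a-3p (0.96), chi-miR-7-5p (0.86), chi-miR-708-5p (0.84) and chi-miR-708-3p (0.77). The lowest were miR-6529a-5p (-0.95), chi-miR-130a-3p (-0.94) and miR-181a-3p (-0.91), and chi-miR-122-3p stood at -0.39. These are descriptions over 6 libraries picked from 267 miRNAs. Without high goat 3, r was 0.92 for chi-miR-10a-5p and 0.90 for miR-2284a-3p, but 0.59 for chi-miR-7-5p, 0.53 for chi-miR-708-5p, 0.05 for chi-miR-708-3p and 0.02 for chi-miR-122-3p, while the lowest 3 lay between -0.91 and -0.75. miR-2284a-3p was at 72.2 RPM in high goat 3 and at 1.19 to 17.6 RPM in the other livers, and chi-miR-7-5p at 50.1 RPM against 1.27 to 11.3 RPM. chi-miR-10a-5p, which is far more abundant in lung (104586 RPM) and kidney (93045 RPM) than in liver (2525 RPM), was highest in high goat 3 (3788 RPM) and lowest in high goat 2 (1826 RPM), as was chi-miR-122-5p.

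In other mammals the DNA strand opposite the miR-122 hairpin gives a separate precursor, miR-3591, of which the 5p strand was listed here. It was nearly absent from liver, with 5 reads in high goat 2 and 0 in the other 5 livers, so it did not share the liver pattern. Most of its 116 reads were in muscle, with 26, 44 and 13 reads in high goats 1, 2 and 3, and 6, 3 and 0 reads in low goats 1, 2 and 3. The high muscles lay above the low ones on few reads, and 117 of the 852 miRNAs with a muscle read (13.7%) had groups that did not overlap (edgeR log2 fold change 3.04, SE 1.40, adjusted p = 0.75). High goat 2, the muscle lowest in chi-miR-122-5p, was the highest for miR-3591-5p. The heart had 6, 13 and 0 reads in high goats 1, 2 and 3, and 0 in the low goats, while kidney, lung and spleen had none.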

How the data were processed

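The authors built small RNA libraries (TruSeq kit, HiSeq), mapped reads with Bowtie to the goat genome and deposited raw counts per mature miRNA. CASAVA 1.8 is named in the submitters' processing notes. From these counts, RPM were computed on the library total, so that an abundant miRNA lowers the RPM of the rest. Fits used all 1391 miRNAs in edgeR 4.0.16 (TMM, quasi-likelihood, Benjamini-Hochberg adjustment) and DESeq2 1.42.0 under R 4.3.3. Permutation tests were exact. Replicate numbers were taken as the same goat across tissues of a population. Named miRNAs were both strands of miR-122, miR-3591 where listed, the 5 most alike over 36 libraries, the 5 most and 3 least alike over the livers, the 10 most abundant in liver, the most abundant of each liver, and 7 cell type lists. The members and lists were chosen with earlier results of these data known. Names marked as predicted were left out of the lists and likeness ranks. No other name had the counts of chi-miR-122-5p in all libraries. Alternatives covered tools, scaling, filters, pseudocounts and left-out libraries.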

Additional observations from a re-analysis of the deposited data

How the results depend on the processing

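Of 170 values under other settings, 18 turned direction and 1 passed the threshold. A further 8 (an index, ranges and counts) were marked as moved, past the SD between libraries or 1.5 times. Other values without this mark also changed by over 1.5 times with 1 goat or library left out. The liver mean ranged from 24721 to 59480 RPM, and F of the test between tissues from 0.698 to 3.57. The summed 3p share in liver reached 0.320% against 0.134%, and the summed muscle ratio 92.7 against 46.5. In liver the edgeR log2 fold change of chi-miR-122-5p turned to -0.27 with the replicate block and ranged from -1.29 (without high goat 3) to 2.03 with 1 library left out, and the difference in mean log2(RPM + 1) ranged from -1.59 to 0.85. The numbers do not mark the same animals across populations, and deviations of same-numbered livers correlated at -0.07, -0.21 and 0.34, so not every liver correlated best with its own number. The count of liver calls, 0 with edgeR and also 0 with the replicate block and with each library left out, was 31 with DESeq2, 2 with library totals alone and 6 with filterByExpr, which tests fewer miRNAs. In muscle the log2 fold change turned to -0.071 with library totals and -0.64 with the replicate block, and ranged from -0.51 to 1.503 with 1 library left out. In kidney that range was -0.077 to 2.12, in spleen -1.20 to 0.0067 and in heart 0.21 to 2.39, the last without low goat 2. The lung call was gained with DESeq2 (3.49). For chi-miR-122-3p in liver the range was -0.51 to 0.40, and for the log2 strand ratio -1.69 to 1.23. The tissue specificity index fell to 0.676 on means of log2(RPM + 1). Where no construction shows it, the cause was not tested. Chosen after seeing the data were the altitude test of the strand ratio and the alternatives for the 3p strand, strand shares and ratios, ranges within a population and correlations over the livers. Groups of 3 limit each altitude comparison, and 15 to 74 reads limit strand ratios outside liver.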
